A study of Mus musculus with 5 samples.

Results

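The genes described here are the subunits and inhibitors of the transcription factor NF-kB, measured by RNAseq in macrophages sorted from the aortas of atherosclerosis-prone mice. They are 10 of the 55487 genes in the deposited table, chosen by symbol: *Nfkb1*, *Rela*, *Rel*, *Nfkb2*, *Relb*, *Nfkbia*, *Nfkbib*, *Nfkbie*, *Nfkbiz* and *Bcl3*. The group was selected on the comparison of the genotypes itself, because *Nfkb2* stood out in it, so the values of the members in that comparison are a description without a test.

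The study compared male *Zeb1*WT/*Apoe*KO mice (2 libraries, WT in the labels and here) with male *Zeb1*∆M/*Apoe*KO mice (3 libraries, KO). Both genotypes carried *Zeb1* fl/fl alleles, with exon 6 of *Zeb1* between loxP sites, and both lacked *Apoe*. The *Zeb1*∆M/*Apoe*KO mice also carried *LysM*-Cre, which is driven by the *Lyz2* promoter and recombines in myeloid cells, not in macrophages alone. All mice received chow for 8 weeks and a Western diet for the next 10 weeks, to an age of 18 weeks. Cells of the aorta were sorted as viable, CD45+ and F4/80+ (and CD11b+ by the methods), and per genotype and condition the cells of 3 mice were mixed. By the methods, libraries were made in triplicate and replicates of the study were biologically independent, but which mice went into which library is not said. The paper's figure legend gives n = 2 and n = 3 mice for this comparison, while the methods mixed the cells of 3 mice. The libraries of a genotype may therefore be splits of 1 pool, and p-values measure only the spread between them, which may be technical.

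NF-kB is a dimer of Rel-family proteins that is held in the cytoplasm by IkB proteins and moves to the nucleus when these are degraded. In the canonical pathway, receptors of TNF, IL-1 and microbial products activate the IKK complex, which marks IkB-alpha for degradation and frees dimers of RelA or c-Rel with the product of *Nfkb1*. In the non-canonical pathway, the precursor encoded by *Nfkb2* is processed and acts with RelB. In macrophages the system drives cytokine and chemokine genes, and several of its own inhibitors are among its targets.

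Total counts were 20118545 to 50649912 per library, and 3 counts, the floor used here, correspond to 0.0592 to 0.149 CPM (counts divided by the library size, on a common scale). Floors cover counting error only, as amplified copies of a molecule are not independent. *Zeb1*, the targeted gene, had 0 counts in 4 libraries and 22 in KO replicate 1, so it did not check the labels. *Lyz2* had 161607 to 869804 counts, and *Apoe* had 86 counts at most. Replicate 1 of the KO libraries stood apart, with 20919 genes counted at least once against 7395 to 10689 in the others, and with 870 genes at 100 counts or more against 1714 to 4421. Of 10 macrophage markers, 8 were above 3 counts in it, but their summed level was 6698 CPM scaled by total counts, against 22819 to 31348 CPM in the other libraries. Most of that sum is *Lyz2*, and the other 9 markers summed to 66.9 CPM in this library, against 1720 and 4357 CPM in the WT libraries and 5470 and 5646 CPM in KO replicates 2 and 3. Among those 9, *Adgre1* (F4/80) had 1068 counts in KO replicate 1, *Ptprc* (CD45) 475 and *Itgam* (CD11b) 0, and *Cd68* and *C1qa* had 10 and 5 counts there and 0 in WT replicate 1. The main values of members and lists that rest on KO replicate 1 are also given without it. In bulk RNA, fewer cells of a type and less RNA per cell cannot be told apart.

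The plot of the counts of each member shows the shape that the following paragraphs give in values. Of the 10 members, *Nfkbia* and *Nfkbiz* were above 3 counts in all 5 libraries, *Rel* in 4, *Nfkb1*, *Nfkb2* and *Nfkbib* in 3, *Rela* in 2, *Relb* and *Nfkbie* in 1, and *Bcl3* in none. Of the 21705 genes that exceeded 3 counts somewhere, 52.0% were above 3 counts in 1 library and 5.0% in all 5.

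**Figure D1:**
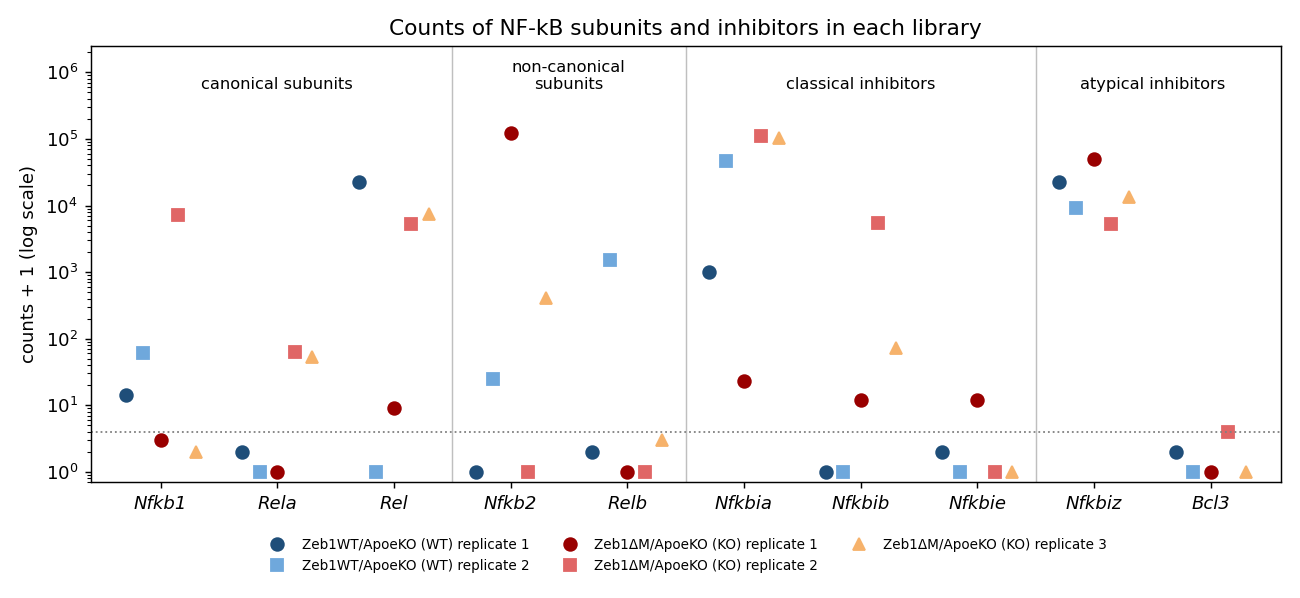
Counts of each member plus 1, on a log axis, in the 2 WT libraries (blue) and the 3 KO libraries (red and orange), ordered by role. The dotted line lies at 3 counts. *Nfkb2* reached 124390 counts in KO replicate 1 and 0 in replicate 2, whereas *Nfkbia* and *Nfkbiz* were counted in every library.

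*Nfkb2* (ENSMUSG00000025225.15, GRCm38 chr19:46304320-46312385, plus strand) encodes the precursor of the non-canonical subunit, which inhibits its partners until it is processed. It had 0 and 24 counts in WT replicates 1 and 2, and 124390, 0 and 409 counts in KO replicates 1, 2 and 3. One library therefore held nearly all of it (99.9% of its CPM over the 5 libraries), and the genotypes overlapped, since replicate 2 of the KO libraries had none. After TMM normalization (scaling factors that make most genes comparable between libraries) the level was 0.348 ± 0.492 CPM (SD, n = 2) against 3424 ± 5924 CPM (SD, n = 3).

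Without KO replicate 1, the mean of *Nfkb2* in the KO libraries was 4.07 ± 5.76 CPM (SD, n = 2). The fitted log2 fold change, KO minus WT, was 13.24 (standard error 4.19) with all libraries and 3.46 without that replicate. Standard errors of edgeR values are approximate here, as they were derived from the F statistic of its test. With all libraries it was 3.92 by limma-voom, which was run with a quality weight for each library. With the replicate number as a block it was 6.88, which rests on replicates 1 and 2, as replicate 3 was KO only. Without KO replicate 2, both remaining KO libraries lay above both WT libraries, and 22.5% of all genes tested did not overlap in either direction. The scale of the high value also depended on the normalization, with 10264 CPM after TMM and 5104 CPM by total counts. By counts, *Nfkb2* was the gene of rank 49 in that library. The library with this value was also the one with the lowest summed level of macrophage markers, and the part of its makeup in the result was not tested.

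*Nfkb2* was not the only gene of this size in that library. With *Nfkb2*, 6 genes had at least 100000 counts in a KO library and no more than 24 counts in either WT library, a limit taken from *Nfkb2* itself. All 6 reached that count in KO replicate 1. The others were *Akr1b3*, *Hba-a2*, *Pdlim4*, *Gm12250* and *Rnase4*, which were identified by this search after the values of *Nfkb2* were seen. *Hba-a2*, a haemoglobin chain of red cells, had 133027 counts in KO replicate 1 and 0 in the other 4 libraries.

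The genes most like *Nfkb2* were ranked by the mean absolute difference in log2 CPM over the 5 libraries, among the 7905 genes tested. The nearest was *Ctu2*, an enzyme of tRNA thiolation, at 0.81, with 0 and 69 counts in the WT libraries and 111356, 0 and 2251 in the KO libraries. It was followed by *2310022A10Rik* at 1.43, by *Akr1b3*, an aldose reductase, at 1.44, and by *Rsl24d1* and the integrin gene *Itgav*, both at 1.59. All 5 were highest in KO replicate 1 and at 0 to 2 counts in replicate 2.

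The kit used does not mark strand, so reads of overlapping genes cannot be told apart. *Nfkb2* shares 531 exonic bases with the minus-strand transcript *AC114539.1*, which had 0 and 2960 counts in the WT libraries and 10, 0 and 9322 in the KO libraries. It shares 299 bases with *Psd*, which had 304 counts at most. Neither was high in the library where *Nfkb2* was.

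*Nfkb2* and *Nfkbia* are textbook NF-kB targets, so the letters of their promoters are shown at the matches to the kappaB consensus. RefSeq promoter windows (250 bases before to 50 after a start, GRCm38.p6) were at hand for 7 members, in 9 windows. The consensus, searched on both strands, matched in 7 of these 9 windows and in 8.46% of all 32851 windows, with overlapping matches counted as 1 place. *Nfkb2* had 4 such places over its 3 start sites, *Rel*, *Nfkbia*, *Nfkbie* and *Bcl3* had 1 each, and *Rela* and *Nfkbib* had none in these windows. Capitals mark the match in each run of 30 bases, written along the strand of the gene:
*Nfkb2*, chr19:46304688-46304717, plus strand, match starting at −39 from the first start site: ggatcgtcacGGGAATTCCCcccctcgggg
*Nfkb2*, chr19:46304716-46304745, plus strand, at −11: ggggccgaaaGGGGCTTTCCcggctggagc
*Nfkb2*, chr19:46305449-46305478, plus strand, at −236 from the second start site: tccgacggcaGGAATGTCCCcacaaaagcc
*Nfkb2*, chr19:46305695-46305724, plus strand, at −225 from the third start site: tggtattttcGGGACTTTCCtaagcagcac
*Nfkbia*, chr12:55492657-55492686, minus strand, at −29: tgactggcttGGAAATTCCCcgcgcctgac
*Rel*, chr11:23771042-23771071, minus strand, at −92: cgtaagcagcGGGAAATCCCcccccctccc
A match describes the letters and says nothing of binding, which was not measured. The counts of *Nfkb2*, *Nfkbia* and *Rel* were highest in different libraries.

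*Relb*, the partner of the *Nfkb2* product (ENSMUSG00000002983.17, chr7:19606217-19629438, minus strand), was not high where *Nfkb2* was. It had 1 and 1538 counts in the WT libraries and 0, 0 and 2 in the KO libraries. WT replicate 2 held 99.8% of its CPM, and *Relb* did not pass the filter on low counts. The non-canonical pair was thus above 3 counts for both genes in 1 of the 5 libraries.

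Among the canonical subunits, *Rel* had the highest mean in each genotype and differed most between replicates of 1 genotype, while *Nfkb1* had more counts than *Rel* in WT replicate 2 and KO replicate 2. *Rel*, which encodes the subunit c-Rel (ENSMUSG00000020275.9, chr11:23736847-23770970, minus strand), had 22631 and 0 counts in the WT libraries. In the KO libraries it had 8, 5196 and 7484 counts. The highest and the undetected library were both WT, a range of 13.74 on the log2 CPM scale within that genotype. The level was 410 ± 579 CPM (SD, n = 2) against 90.4 ± 78.9 CPM (SD, n = 3), with a log2 fold change of −2.18 (standard error 3.92). The sign was the opposite without WT replicate 1, at 14.69, and by limma-voom, at 4.92.

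*Nfkb1*, which encodes the precursor of the canonical partner subunit (ENSMUSG00000028163.17, chr3:135584655-135691547, minus strand), had 13 and 59 counts in the WT libraries and 2, 7213 and 1 in the KO libraries. KO replicate 2 held 98.6% of its CPM, while the other 2 of that genotype were under the floor of 3 counts. The log2 fold change of the gene was 5.68 (standard error 6.40), 0.19 by limma-voom, and −3.69 without that replicate. *Rela*, the main transactivating subunit (ENSMUSG00000024927.8, chr19:5637483-5648130, plus strand), had 1 and 0 counts against 0, 62 and 52. It was above the floor in KO replicates 2 and 3 alone, at 1.45 and 1.03 CPM, and its log2 fold change was 5.28 (standard error 5.21), and 0.19 with upper-quartile scaling.

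*Nfkbia*, which encodes IkB-alpha, the inhibitor degraded and resynthesised in each round of canonical signalling (ENSMUSG00000021025.8, chr12:55489410-55492647, minus strand), had 1006 and 46973 counts in the WT libraries. It had 22, 110719 and 102814 counts in the KO libraries. It was low in replicate 1 of each genotype and among the most counted genes in the rest, at rank 29 in KO replicate 2 and rank 53 in replicate 3. The level was 700 ± 938 CPM (SD, n = 2) against 1546 ± 1364 CPM (SD, n = 3), with a log2 fold change of 1.14 (standard error 2.78), and of −1.69 with the replicate number as a block.

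Without KO replicate 1, the *Nfkbia* level of that genotype was 2318 ± 384 CPM (SD, n = 2) and both remaining libraries lay above both WT libraries. Of all genes tested, 24.2% did not overlap in either direction without that library. *Nfkbia* was at 1.82 CPM in that replicate, where *Nfkb2* was at its highest. Macrophage markers were also low in that replicate, and their part in the *Nfkbia* value was not tested. In WT replicate 1, where *Nfkbia* was at 36.4 CPM, the 9 macrophage markers other than *Lyz2* were at 1720 CPM by total counts, below all but KO replicate 1.

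*Nfkbib*, which encodes IkB-beta (ENSMUSG00000030595.15, chr7:28758251-28767512, minus strand), was the single member whose genotypes did not overlap. It had 0 counts in both WT libraries and 11, 5462 and 71 counts in the KO libraries. Against the mean floor of 3 counts per library, its mean level was at least 443-fold higher in the KO libraries, and at least 11.9-fold higher without replicate 2, which held 98.2% of its CPM. Its log2 fold change was 13.50 (standard error 8.23). Its lowest KO value, 11 counts, lay in KO replicate 1, where 16423 genes exceeded 3 counts, against 5009 to 6931 in the other libraries. Of all genes tested, 6.68% did not overlap with KO higher and 4.54% with it lower. *Nfkbib* shares 314 exonic bases with *Ccer2*, at 0 in every library, and 42 with *Sirt2*, which had 17932 counts in KO replicate 3. *Nfkbie*, which encodes IkB-epsilon (ENSMUSG00000023947.8, chr17:45555703-45563169, plus strand), had 1 and 0 counts against 11, 0 and 0, so KO replicate 1 held nearly all of them.

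The 2 remaining members encode nuclear IkB proteins (the atypical inhibitors), which act on NF-kB at the DNA and can raise as well as lower transcription. *Nfkbiz* (IkB-zeta; ENSMUSG00000035356.17, chr16:55811375-55838899, minus strand) had 22272 and 9092 counts in the WT libraries and 50174, 5241 and 13318 in the KO libraries. It was at 5241 counts or more in every library, with the WT values inside the range of the KO values. The level was 535 ± 384 CPM (SD, n = 2) against 1509 ± 2280 CPM (SD, n = 3), with a log2 fold change of 1.5 (standard error 2.88). Without KO replicate 1, that genotype had 194 ± 101 CPM (SD, n = 2) and the log2 fold change was −1.76. By limma-voom it was −0.97 with all libraries. In that replicate TMM gave 4140 CPM and total counts gave 2059 CPM. *Bcl3* (ENSMUSG00000053175.17, chr7:19808462-19822770, minus strand) had 1 and 0 counts against 0, 3 and 0, and was not above the floor in any library.

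Per kilobase of exon, which allows levels to be compared between genes, the median TMM CPM over the 5 libraries was 847 for *Nfkbia*, 52.8 for *Nfkbiz* and 16.3 for *Rel*. The other 7 had medians below that of *Rel*. The mean of *Nfkb2* was 448 ± 1001 CPM per kilobase (SD, n = 5), between *Nfkbia* at 750 ± 726 and *Nfkbiz* at 223 ± 341. Without KO replicate 1, *Nfkb2* was at 0.482 ± 0.866 (SD, n = 4), and *Nfkbia* at 937 ± 685, *Nfkbiz* at 72.6 ± 60.2, *Rel* at 36.5 ± 49.6 and *Nfkbib* at 14.9 ± 29.3 were above it, as were *Nfkb1* and *Relb*. With all 5 libraries each SD was near or above its mean, so neighbours in this order did not differ beyond their spread.

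Summed by role, 3 libraries were led by the classical inhibitors and the other 2 by other roles, as the stacked counts show. The canonical subunits had 22645 and 59 counts in the WT libraries and 10, 12471 and 7537 in the KO libraries. The non-canonical pair had 1 and 1562 against 124390, 0 and 411 counts. The classical inhibitors had 1007 and 46973 against 44, 116181 and 102885 counts. The leading member was *Rel* in WT replicate 1, *Nfkb2* in KO replicate 1 and *Nfkbia* in the other 3 libraries, which hold both genotypes. The sum of all 10 members was 45926 and 57686 counts against 174618, 133896 and 124151, in libraries of unequal total counts.

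**Figure D2:**
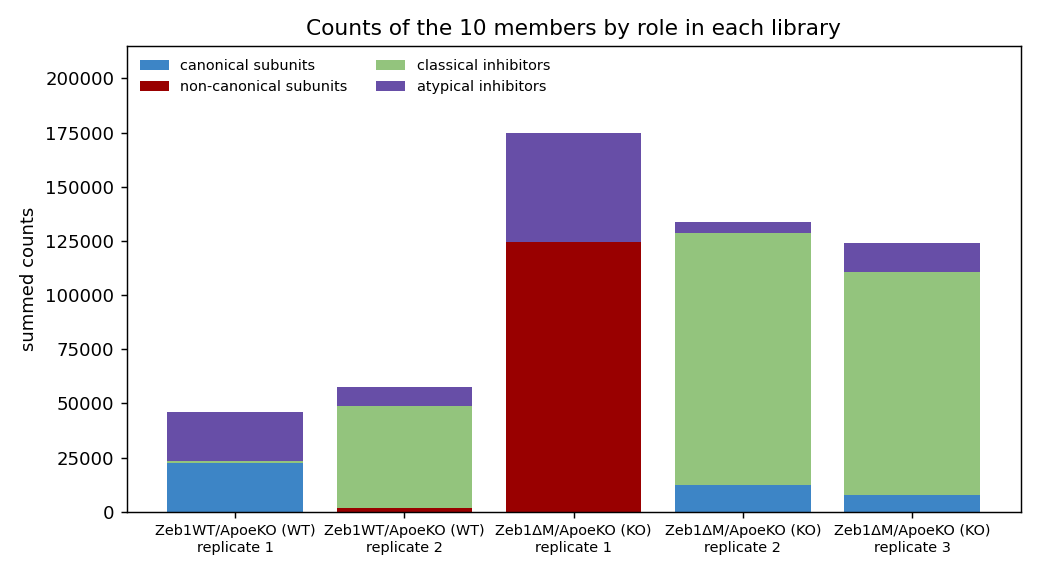
Summed counts of the members by role, stacked for each of the 5 libraries. KO replicate 1 consists almost wholly of the non-canonical subunits (124390 counts) and the atypical inhibitors (50174 counts), whereas KO replicates 2 and 3 are led by the classical inhibitors (116181 and 102885 counts).

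The comparison of the genotypes across all genes called 0 of 7905 genes (0% called) with edgeR's quasi-likelihood test at a Benjamini-Hochberg adjusted p under 0.05, and 86 genes had an unadjusted p under 0.05. Of the 10 members, 7 passed the filter on low counts (all but *Relb*, *Nfkbie* and *Bcl3*), and none of the 7 was called. DESeq2 called 790 of 6519 genes (12.1%) and limma-voom 234, with no member in either. DESeq2 could call few members, as it gave an adjusted p to *Rel*, *Relb* and *Nfkbia* only. It gave no p to *Nfkb1*, *Nfkb2*, *Nfkbib* and *Nfkbiz*, whose counts it treated as outliers by default, and no adjusted p to *Rela*, *Nfkbie* and *Bcl3*. As the members were chosen with this contrast known, nothing is read from these counts. In simulated data of this spread edgeR missed every gene made to differ, so its 0 calls do not show that the genotypes were alike. The median log2 fold change of all genes tested was 0.78, which other scalings moved to 0.29 (upper quartile) or 1.24 (RLE), so the members' values lie on a scale with that shift.

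**Figure D3:**
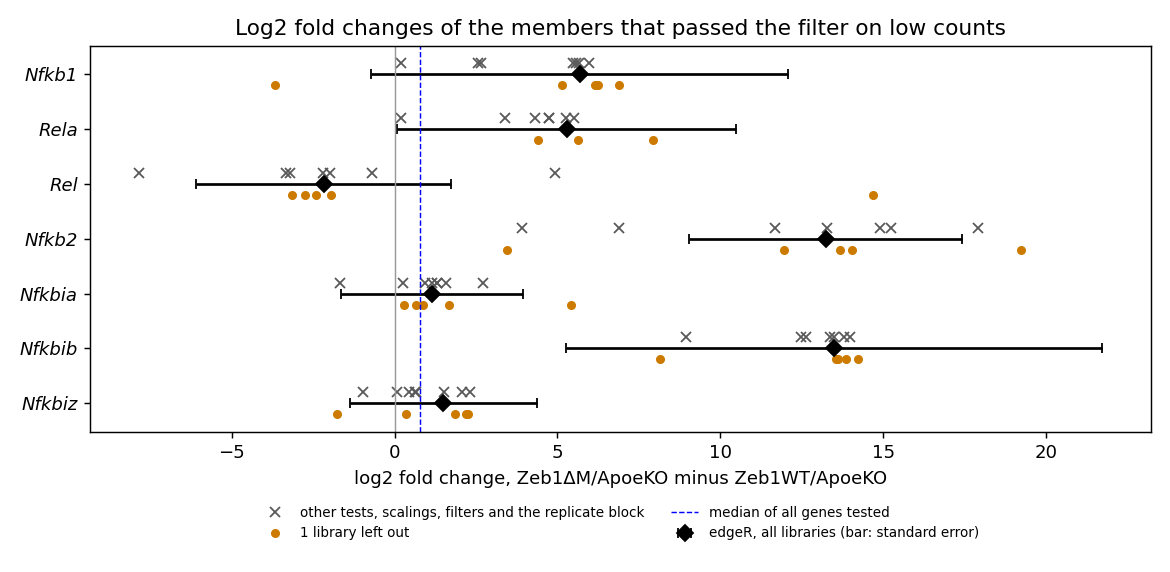
Log2 fold change (KO minus WT) of the 7 members that passed the filter, from edgeR with an approximate standard error derived from its F statistic (diamonds and bars), from the other tests, scalings, filters and the replicate block (crosses), and with 1 library left out (dots). The dashed line is the median of all genes tested, 0.78. *Nfkb2* was at 13.24 with all libraries and at 3.46 without KO replicate 1, and *Rel*, *Nfkb1*, *Nfkbia* and *Nfkbiz* had values on both sides of 0.

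The other genes of the pathway were taken from 6 lists with 74 genes (receptors, adaptors, kinases, brakes, ubiquitin and processing enzymes, and targets). Of these, 70 were above 3 counts in some library and 54 were tested. None was called in either direction by edgeR, and none had an unadjusted p under 0.05. Their median log2 fold change was −0.02 against 0.78 for all genes tested, and 26 of the 54 were above 0, as were 60.9% of all genes tested. The genotypes did not overlap for 9 of the 54 with KO higher and for 2 with it lower, beside 6.68% and 4.54% of all genes tested. Without KO replicate 1, 47 of the genes were fitted and none was called, and their median was 0.05 against 0.14 for all genes, with 24 of the 47 above 0. Without it, 12 of the 54 did not overlap with KO higher and 5 with it lower, beside 13.1% and 11.1% of all genes.

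Of the receptors, 4 of 9 were tested, with a median log2 fold change of −0.62, and of −0.11 without KO replicate 1. *Tnfrsf1b*, a TNF receptor, had 995 and 435 counts in the WT libraries and 28215, 9861 and 6956 in the KO libraries. Every KO library lay above both WT libraries, replicate 1 included, with a log2 fold change of 5.21 (standard error 4.11, edgeR adjusted p = 1), and of 2.64 (standard error 4.84) without that replicate. *Tnfrsf1a*, the other TNF receptor, had 0 and 3486 counts against 86, 1880 and 6437. *Tlr2*, a receptor of bacterial lipoproteins, had 4537 and 296 counts against 1, 0 and 1038. Both overlapped between the genotypes.

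Of the adaptors, 10 of 14 were tested, with a median of 1.83, and of 0.59 over the 9 fitted without KO replicate 1. *Birc2*, a ubiquitin ligase of the TNF receptor complex, had 0 counts in both WT libraries and 20, 12252 and 7806 counts in the KO libraries. Its groups did not overlap, and edgeR's adjusted p was 1, with 0.0017 from DESeq2 and 7.84e-05 from limma-voom. In simulated data of this spread, most calls of DESeq2 and limma-voom were false, and edgeR missed every gene made to differ. *Birc3*, its paralog, had 779 and 0 counts against 0, 27 and 20970. *Tradd*, which links the TNF receptor to the complex, had 19856 and 1103 counts against 0, 8932 and 0. *Traf5*, a TNF receptor adaptor, had 0 and 3294 counts against 0, 0 and 0, and was called lower by DESeq2 (adjusted p = 3.68e-08) although 1 WT library was also at 0.

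Of the kinases, 6 of 7 were tested, with a median of −0.55, and of −1.99 over the 5 fitted without KO replicate 1. *Chuk*, which encodes IKK-alpha, the kinase of the non-canonical pathway, had 0 and 81 counts in the WT libraries and 9966, 0 and 31 in the KO libraries. Like *Nfkb2*, it was highest in replicate 1 and at 0 in replicate 2. The log2 fold change of *Chuk* was 7.86 (standard error 6.11), and −1.99 (standard error 3.09) without replicate 1. *Ikbkb*, which encodes IKK-beta, the kinase of the canonical pathway, had 3503 and 3822 counts against 70, 8953 and 5335. *Tbk1*, an IKK-related kinase, had 4115 and 3087 counts against 0, 28 and 9293.

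Of the brakes, 6 of 10 were tested, with a median of −2.99, and of −0.54 over the 4 fitted without KO replicate 1. *Tnfaip3*, which encodes the ubiquitin-editing enzyme that ends TNF signalling, had 33691 and 1670 counts against 22, 2802 and 12181. Its genotypes overlapped, and its lowest value lay in KO replicate 1. *Traf1* had 854 and 0 counts against 37, 21990 and 5039. *Nfkbid*, a nuclear IkB gene like *Nfkbiz*, had 36379 counts in KO replicate 2 and 1 at most elsewhere, and did not pass the filter. Of the ubiquitin and processing genes, 8 of 10 were tested, with a median of 0.69, and of 0.49 over the 6 fitted without KO replicate 1. *Nedd8*, the ubiquitin-like protein that activates the ligase of IkB, had 28916 and 16618 counts against 0, 18873 and 37393. *Ube2n* and *Ube2v1*, which together build the ubiquitin chains of the canonical pathway, were at 0 in WT replicate 1 and at 0 and 7 counts in KO replicate 1. In the other 3 libraries *Ube2n* had 7304, 13418 and 26771 counts and *Ube2v1* had 15395, 17411 and 10891. *Fbxw11*, a part of that ligase, had 0 and 0 counts against 17, 1799 and 1, and was called higher by DESeq2 (adjusted p = 0.0441).

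Of the targets, 20 of 24 were tested, with a median of −0.10 and 8 above 0. Without KO replicate 1, the median of the targets was 0.05, with 10 of 19 above 0. *Ccl3*, a chemokine gene, had 5295 and 17627 counts in the WT libraries and 30764, 34779 and 36746 in the KO libraries. Its groups did not overlap, and its log2 fold change was 1.95 (standard error 3.05, edgeR adjusted p = 1), and 0.996 (standard error 2.04) without KO replicate 1. *Il1b*, which encodes a cytokine of inflamed plaques, had 14932 and 14309 counts against 6, 88445 and 22449. *Cd83*, an activation marker, had 24280 and 63308 counts against 2, 70093 and 116137. Both were near the floor in KO replicate 1 and at 14309 counts or more elsewhere, whereas *Ccl3* was high in that library. *Gadd45b*, a stress-response gene, had 3716 and 3517 counts against 0, 5 and 0, and was lower by DESeq2 (adjusted p = 0.00902) and limma-voom (adjusted p = 0.00108) but not by edgeR (adjusted p = 1).

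**Figure D4:**
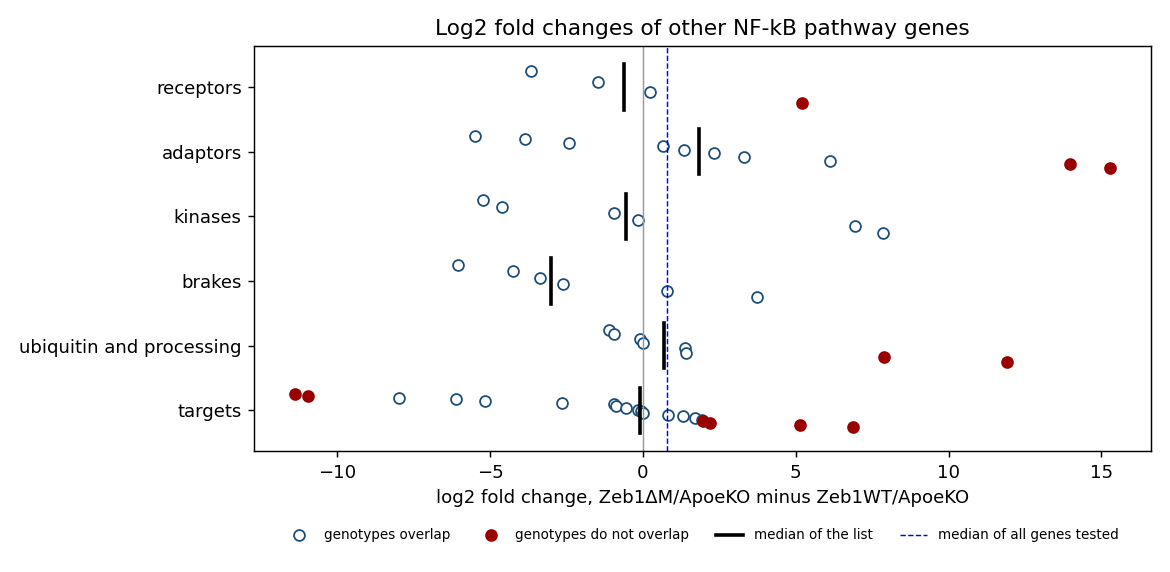
Log2 fold change (KO minus WT) of the 54 other pathway genes tested, by list, with open circles where the genotypes overlap and filled circles where they do not. Black bars are the medians of the lists and the dashed line the median of all genes tested, 0.78. The 11 filled circles are spread over receptors, adaptors, ubiquitin and processing genes, and targets, with 2 of them below 0.

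Markers of other cells differed between libraries as well. The 7 T-cell markers summed to 10.8 and 5300 CPM by total counts in the WT libraries and to 1.15, 432 and 1419 in the KO libraries. They were highest in WT replicate 2, the library with *Relb* and *Traf5*, where all 7 were above 3 counts. KO replicate 3 came next, with 2 counts of *Relb* and 0 of *Traf5*. The 7 neutrophil markers summed to 3591 and 919 CPM against 1384, 1005 and 39.6, highest in WT replicate 1, the library led by *Rel*, where 3 of the 7 were above 3 counts. KO replicate 1 came next, with 8 counts of *Rel*. Its sum was nearly all *S100a8* (33132 counts), with *S100a9* and *Retnlg* at 0. *Camp* was at 0 in every library. The 5 B-cell markers summed to 3 to 1442 CPM, with *Cd79a* and *Cd79b* at 0 in every library. The 5 dendritic-cell markers summed to less than 4 CPM except for 431 in KO replicate 3, where *Cd209a* held all of it. The 5 smooth muscle markers were at 0 except for 0.451 CPM in KO replicate 1, the 5 endothelial markers summed to 0.168 to 72.3 CPM with *Cdh5* at 0, and the 5 fibroblast markers reached 531 CPM in KO replicate 2, nearly all of it *Dcn*, with *Col1a1*, *Pdgfra* and *Lum* at 0. The gate on CD45, CD11b and F4/80 was set for macrophages. In WT replicate 2, however, the T-cell markers (5300 CPM) summed to more than the 9 macrophage markers other than *Lyz2* (4357 CPM), and to less elsewhere. The neutrophil markers summed to more than those 9 in replicate 1 of each genotype, and to less elsewhere. The part of such RNA in the members' values was not tested.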

How the data were processed

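Macrophage RNA was made into cDNA with an ultra-low-input SMART-Seq kit, which amplifies the RNA of few cells and does not mark strand. Per the labels and the paper's methods, the authors aligned reads to GRCm38 with STAR 2.5.3a and deposited RSEM 1.3.0 expected counts per gene as whole numbers, without normalization or filter. Groups were taken from the labels.

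The test was that of edgeR 4.0.16 (R 4.3.3), with filterByExpr (minimum count 10, leaving 7905 genes), TMM, and quasi-likelihood fits of the genotypes without covariates and Benjamini-Hochberg adjustment, with calls at 0.05. Log2 CPM used a prior count of 2. Standard errors of edgeR values are the absolute log2 fold change divided by the square root of the F statistic, an approximation that edgeR itself does not report. Scripts were tested on simulated data, where most DESeq2 and limma-voom calls were false at the spread of these libraries. At that spread edgeR made no calls, true or false, and so missed every gene made to differ. Its lack of calls in these libraries therefore does not show that genes were alike. The alternatives were DESeq2 1.42.0 (the authors' tool), limma-voom (limma 3.58.1, with a quality weight for each library), RLE and upper-quartile scaling, total counts (for overlap alone), other filters, mitochondrial genes left out, the replicate block, a threshold of 0.1 and each library left out.

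The members and gene lists were chosen with earlier results of these data known. Named were all members, *Zeb1*, *Lyz2* and *Apoe*, the called genes and the 3 most abundant genes of each pathway list, and the 5 genes most like *Nfkb2*. Genes called by DESeq2 or limma-voom alone, overlapping genes, markers and the genes as high as *Nfkb2* were added after their values were seen. Loci are from GENCODE M21 (GRCm38). Values of pathway lists and levels per kilobase without *Zeb1*∆M/*Apoe*KO replicate 1, marker sums without *Lyz2* and shares of all genes without overlap were added after seeing the data.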

Additional observations from a re-analysis of the deposited data

How the results depend on the processing

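*Bcl3* and *Nfkbie* had 11 counts at most in any library, so a difference in them was not detectable at this depth. At the threshold of 0.1 edgeR called no gene. *Relb* had an adjusted p of 0.0695 from DESeq2 (log2 fold change −9.61), with 99.8% of its CPM in WT replicate 2. At 0.05, no member was called by edgeR under its alternatives, by limma-voom or by DESeq2 (which gave 3 members an adjusted p). At most 1 member had an unadjusted p under 0.05 in any of them. DESeq2 called 790 genes, 4 of them in the pathway lists, and limma-voom 234 and 2, against none by edgeR with TMM, RLE or upper-quartile scaling, either other filter, mitochondrial genes or any library left out. Of members, 2 did not overlap between genotypes with RLE, upper-quartile scaling or total counts (*Nfkbib* and *Relb*, the latter at 1 against 2 counts), beside 10.9% to 11.7% of all genes tested, and 2 to 3 with 1 library left out, beside 20.5% to 39.4% of all genes. The log2 fold change ranged over the alternatives from 3.46 to 19.23 for *Nfkb2*, 8.15 to 14.24 for *Nfkbib*, 0.19 to 7.93 for *Rela*, −3.69 to 6.90 for *Nfkb1*, −7.86 to 14.69 for *Rel*, −1.69 to 5.43 for *Nfkbia* and −1.76 to 2.31 for *Nfkbiz*. *Rel* was also above 0 with limma-voom (4.92) and *Nfkbiz* below 0 with it (−0.97), and the cause was not tested. Where a WT library was left out, the remaining one was assumed to vary like the others. At least 10 counts in every library kept *Nfkbia* and *Nfkbiz* alone. *Rela* was not fitted without KO replicate 2 or without KO replicate 3, which held nearly all its counts, so its range leaves these settings out.

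The replicate numbers 1 and 2 occur in both genotypes but nothing says that they mark a shared batch, and the differences between replicates 1 and 2 correlated at 0.18 across genes between the genotypes. With the replicate number as a block, 0 genes were called (7 at an unadjusted p under 0.05), and the log2 fold change was 6.88 for *Nfkb2* and −1.69 for *Nfkbia*. Replicate 3 exists in the KO libraries only, so the genotype difference of that fit rests on replicates 1 and 2.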
